A study of Homo sapiens with 6 samples.

Results

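The forkhead genes other than FOXA1, FOXA2 and FOXA3 were taken as the protein-coding genes whose symbol is FOX, a letter other than A and a number, with or without L and a further number, in the RefSeq annotation of GRCh38. The rule gave 47 genes of 20037. The peak lists of 4 TLE3 chromatin immunoprecipitation (ChIP-seq) libraries were merged into 72272 regions wherever peaks overlapped by at least 1 bp. Of these, 223 lay inside a forkhead gene, or outside all protein-coding genes with a forkhead gene as the nearest of them within 100 kb. In that assignment 37 forkhead genes had a region and 10 had none. A region was assigned by distance, which does not show that it acts on the gene.

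The cells were MDA-MB-453, an established human breast cancer line that expresses the androgen receptor and not the estrogen receptor. The groups are labelled siNS, taken here as the control although the labels do not spell out NS, and siFOXA1, with FOXA1 silenced by siRNA. Each group had 2 ChIP libraries that the labels call biological replicates, all made with an antibody to TLE3 after a further cross-linker had been applied ahead of formaldehyde. No dose or time of the siRNA treatment is in the labels, and both groups share the cell line. Input libraries, labelled MDA-MB-454, were not analysed here. The lists hold no expression value and no FOXA1 level, so neither the silencing nor markers of the cell line could be checked from them.

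Forkhead proteins are transcription factors that bind DNA through a shared winged-helix domain, and many recognise variants of the letters TGTTTAC or TGTTTGC. TLE3 is a corepressor of the Groucho family. It does not bind DNA by itself and is brought to chromatin by partner factors, several of them forkhead proteins that carry a short EH1 peptide. FOXA1, the pioneer factor silenced here, opens chromatin for nuclear receptors in breast cells, and the other forkhead genes include regulators of insulin signalling (FOXO), cell division (FOXM1), cilia (FOXJ1) and organ development.

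TLE3 peaks lay over the start sites of many of these genes in the siNS libraries. RefSeq start windows of 300 bases (250 before the start site and 50 from it onward, GRCh38.p14) were at hand for 37 of the 47 genes, 48 windows in all. Peaks of both siNS libraries overlapped a start window of 15 of the 37 genes (40.5%), beside 52.9% of all protein-coding genes in the table. The 15 were FOXC1, FOXD2, FOXD3, FOXJ2, FOXJ3, FOXK1, FOXK2, FOXN3, FOXO1, FOXO3, FOXO4, FOXO6, FOXP1, FOXP4 and FOXQ1. Peaks of both siFOXA1 libraries overlapped a start window of 0 of the 37, beside 0.757% of all genes, and neither siFOXA1 library alone had a peak on any of the 48. When every list was shortened to its strongest peaks, with as many as the shortest list holds, the siNS count was 4 genes (10.8%, beside 18.4% of all genes in the table) and the siFOXA1 count 0 (beside 0.745%).

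The letters of these windows differed. The 250 bases before the start site are shown for 4 genes whose window both siNS libraries overlapped and for 2 genes whose window neither did, with each CG pair in capitals. They are RefSeq sequences, written 5′ to 3′ along the gene's strand. FOXO6 lies at chr1:41361184-41361433 on the plus strand, FOXK1 at chr7:4682045-4682294 on the plus strand, FOXP1 at chr3:71583729-71583978 on the minus strand and FOXD3 at chr1:63322317-63322566 on the plus strand. FOXR2 lies at chrX:55623150-55623399 on the plus strand and FOXD4 at chr9:118418-118667 on the minus strand.
FOXO6: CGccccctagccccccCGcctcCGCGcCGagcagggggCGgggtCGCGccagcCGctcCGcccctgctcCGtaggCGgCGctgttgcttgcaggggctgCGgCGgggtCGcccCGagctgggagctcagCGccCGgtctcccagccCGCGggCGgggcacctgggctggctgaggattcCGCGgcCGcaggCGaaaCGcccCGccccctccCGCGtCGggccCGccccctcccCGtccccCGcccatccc
FOXK1: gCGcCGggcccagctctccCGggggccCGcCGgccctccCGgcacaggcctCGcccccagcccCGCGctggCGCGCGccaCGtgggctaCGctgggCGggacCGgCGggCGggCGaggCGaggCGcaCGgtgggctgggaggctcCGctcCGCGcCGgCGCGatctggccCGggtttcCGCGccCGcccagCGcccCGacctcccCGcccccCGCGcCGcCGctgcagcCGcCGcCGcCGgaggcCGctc
FOXP1: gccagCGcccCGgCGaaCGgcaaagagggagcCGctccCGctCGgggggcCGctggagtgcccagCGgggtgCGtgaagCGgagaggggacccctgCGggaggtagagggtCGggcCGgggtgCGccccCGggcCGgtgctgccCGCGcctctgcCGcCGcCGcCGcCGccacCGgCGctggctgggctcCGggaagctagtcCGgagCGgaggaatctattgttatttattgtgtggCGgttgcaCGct
FOXD3: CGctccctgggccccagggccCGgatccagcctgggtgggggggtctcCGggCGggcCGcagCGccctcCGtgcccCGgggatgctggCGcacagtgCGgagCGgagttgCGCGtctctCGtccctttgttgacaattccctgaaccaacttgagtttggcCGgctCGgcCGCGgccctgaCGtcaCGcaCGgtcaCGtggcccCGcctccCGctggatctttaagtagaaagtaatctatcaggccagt
FOXR2: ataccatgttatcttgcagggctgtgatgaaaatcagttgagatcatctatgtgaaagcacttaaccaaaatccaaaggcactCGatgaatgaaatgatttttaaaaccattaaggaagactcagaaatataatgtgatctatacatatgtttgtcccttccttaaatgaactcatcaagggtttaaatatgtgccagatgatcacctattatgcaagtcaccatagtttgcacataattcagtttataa
FOXD4: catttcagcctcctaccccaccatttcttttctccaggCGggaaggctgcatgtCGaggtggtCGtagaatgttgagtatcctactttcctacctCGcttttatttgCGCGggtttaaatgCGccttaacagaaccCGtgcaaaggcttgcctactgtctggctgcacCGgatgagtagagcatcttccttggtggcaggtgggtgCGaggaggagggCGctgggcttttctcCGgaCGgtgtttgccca
The stretches of FOXO6, FOXK1, FOXP1 and FOXD3 held 34, 44, 31 and 24 CG pairs, and those of FOXR2 and FOXD4 held 1 and 13. Over the whole 300-base windows, the 18 windows with peaks of both siNS libraries had a median of 40.5 CG pairs (25 to 55). The 27 windows with a peak of neither siNS library had a median of 11 (1 to 39), so the ranges overlapped. FOXR2, shown above, stands at the lowest count of these 27. The windows of FOXI3, FOXL3 and FOXE1, with 39, 35 and 32 pairs, are also among them, beside 29 in that of FOXD3. Of these 27, 6 belong to FOXD4 and its closely related copies, and the other 21 had a median of 10 (1 to 39). Some genes have several windows. Among the 21 are windows of FOXP1 (2, 3, 7 and 3 CG pairs), FOXJ3 (8) and FOXO3 (2). These genes each had another window with peaks of both siNS libraries. Both FOXP2 windows (1 and 3) are also among the 21. FOXO3 windows with 47, 42 and 40 pairs, all with peaks of both siNS libraries, lie under the same region. The medians thus describe windows, and no median per gene was taken. The same split of windows over all protein-coding genes gave medians of 29 and 6. The G and C content moved with it, with medians of 75.0% and 54.7% in the forkhead windows.

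**Figure D1:**
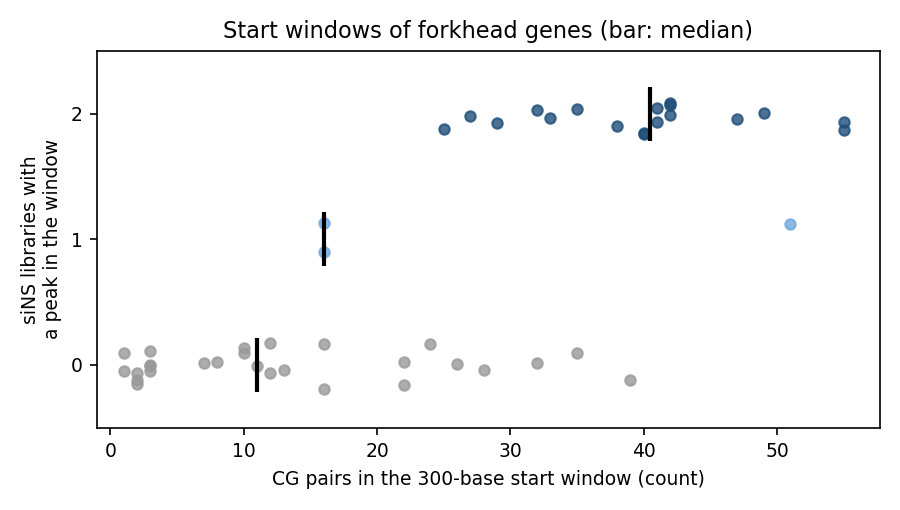
CG pairs in each 300-base start window of a forkhead gene (x axis, count), by the number of siNS libraries with a peak in that window (y axis). Each point is a window and each black bar a median. The windows with peaks of both siNS libraries hold 25 to 55 CG pairs and those with neither 1 to 39. FOXJ3, FOXO3, FOXP1 and FOXP2 have more than 1 window.

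The forkhead letters themselves stood in few of these windows. TGTTTAC or TGTTTGC, searched on both strands, were found in 5 of the 48 windows (10.4%), beside 6.11% of the 22199 windows of all protein-coding genes. Among the 18 windows with peaks of both siNS libraries, that of FOXO4 alone held them, with TGTTTAC on the minus strand 23 bases after the start site. Over all protein-coding genes, 453 of the 10539 windows with peaks of both siNS libraries (4.30%) held them. A count among 18 windows is too small to set apart from that share. Counted from the start site, with bases before it negative, TGTTTGC began at -10 in FOXD4 and FOXD4L6 and at -223 in FOXD4L3. TGTTTAC began at -193 in an internal start window of FOXP1. The 3 windows with TGTTTGC belong to closely related gene copies. The 5 windows are therefore not independent of each other, and the 10.4% counts a repeated stretch more than once. A match describes the letters only and names no bound site.

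At the level of the gene, the shares of forkhead genes with TLE3 regions lay near those of all protein-coding genes. A region with peaks of both siNS libraries, called a siNS consensus region here, was assigned to 31 of the 47 genes (66.0%), beside 66.6% of all protein-coding genes. A siFOXA1 consensus region, with peaks of both siFOXA1 libraries, was assigned to 11 of the 47 (23.4%), beside 19.7%. Regions of any class were found at 37 of the 47, beside 83.5% of all genes.

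Per library, the lists held 158 forkhead peaks in siNS 1, 165 in siNS 2, 32 in siFOXA1 1 and 29 in siFOXA1 2. The groups did not overlap. The means were 161.5 ± 4.95 and 30.5 ± 2.12 (SD, n = 2 each), a 5.30-fold difference, with a two-sided exact permutation p of 0.333, which is the smallest that 2 libraries against 2 can give. Genes with at least 1 peak numbered 36 in siNS 1 and 34 in siNS 2, beside 77.2% and 75.4% of all genes. They numbered 15 in siFOXA1 1 and 11 in siFOXA1 2, beside 25.6% and 27.3% of all genes (mean 35 ± 1.41 against 13 ± 2.83, exact permutation p = 0.333). The shares of the 47 were 76.6%, 72.3%, 31.9% and 23.4%, near those of all genes in each library.

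The siFOXA1 lists were shorter as a whole, and their length moved with these counts. The deposited lists held 45109 (siNS 1), 46589 (siNS 2), 12253 (siFOXA1 1) and 13763 (siFOXA1 2) peaks, and no read depth came with them. Forkhead peaks were 0.350% (95% Clopper-Pearson interval 0.298 to 0.409), 0.354% (0.302 to 0.412), 0.261% (0.179 to 0.369) and 0.211% (0.141 to 0.303) of the peaks used. The intervals cover counting error only, and each siFOXA1 interval overlaps both siNS ones. The means were 0.352 ± 0.00275% and 0.236 ± 0.0356% (SD, n = 2 each, exact permutation p = 0.333). In lists of equal length the forkhead peak difference was 23 in place of 131, the difference in genes with a peak 7.5 in place of 22, and the difference in the forkhead share 0.188 in place of 0.116 percentage points. The part of list length in these differences was not tested further.

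Position relative to the gene was compared in the same way. Peaks within 1 kb of either end of their forkhead gene were 40 of 158 (25.3%) in siNS 1 and 39 of 165 (23.6%) in siNS 2. They were 2 of 32 (6.25%) in siFOXA1 1 and 2 of 29 (6.90%) in siFOXA1 2. The groups did not overlap, with means of 24.5 ± 1.19% and 6.57 ± 0.457% (SD, n = 2 each), a 3.72-fold difference, and an exact permutation p of 0.333. Over all peaks the same shares were 31.7%, 28.6%, 4.56% and 4.22%. The siFOXA1 peaks near a forkhead gene end lay at FOXP1 and at the far end of FOXO3.

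**Figure D2:**
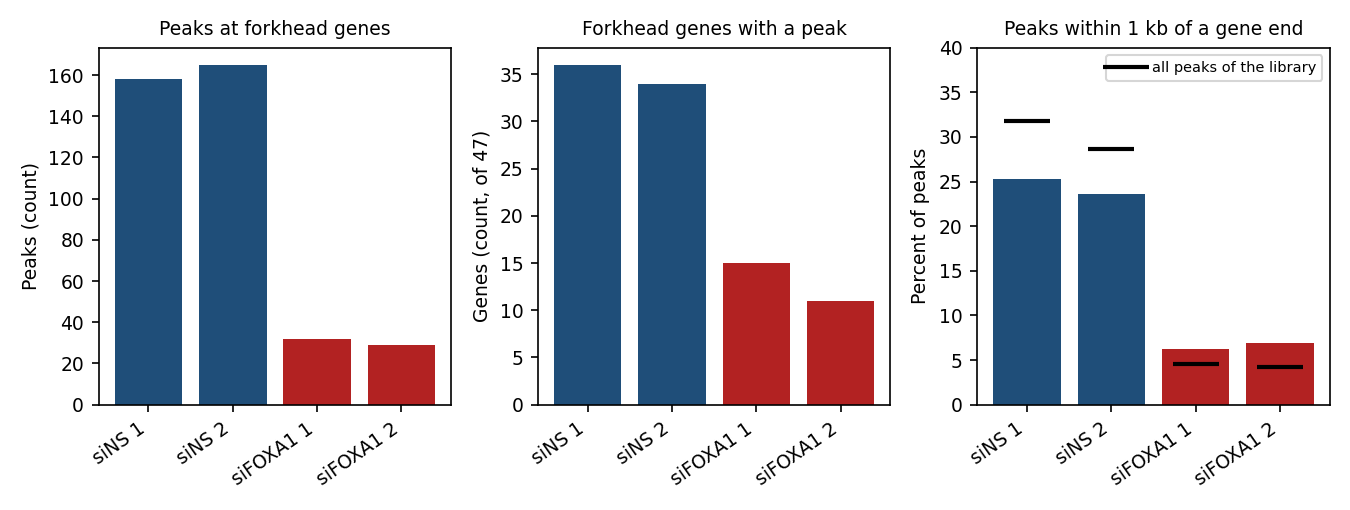
Peaks at forkhead genes (left, count), forkhead genes with a peak (middle, count of 47) and the percentage of forkhead peaks within 1 kb of a gene end (right), with 1 bar per library, siNS in blue and siFOXA1 in red. Black marks in the right panel give the percentage over all peaks of that library; the siNS bars stand at 25.3% and 23.6% and the siFOXA1 bars at 6.25% and 6.90%.

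The 223 regions fell into 8 classes by the libraries that held a peak. A peak of 1 siNS library alone made up 107 (48.0%, beside 48.0% of the regions assigned to any gene), and both siNS libraries without siFOXA1 made up 79 (35.4%, beside 31.3%). All 4 libraries shared 12 (5.38%, beside 3.66%), and 2 had both siNS libraries and 1 siFOXA1 library (0.897%, beside 2.34%). Both siFOXA1 libraries and 1 siNS library shared 5 (2.24%, beside 2.75%), and another 5 had both siFOXA1 libraries and no siNS library (2.24%, beside 3.42%). A peak in 1 library of each group made up 6 (2.69%, beside 2.08%), and 1 siFOXA1 library alone made up 7 (3.14%, beside 6.40%). The siFOXA1-only regions lay at 5 of the 47 genes, beside 7.94% of all genes with such a region. The regions of all 4 libraries lay at 6 of the 47, beside 9.34%.

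Of the 93 siNS consensus regions of forkhead genes, 14 (15.1%, 95% interval 8.48 to 24) had a peak of either siFOXA1 library, or of both, and are called kept here. Over all regions the share was 17.0% (4235 of 24967), inside that interval. Each siFOXA1 library alone kept 13, and both together 12. The kept regions lay at 6 genes (12.8% of the 47, beside 14.5% of all genes), namely FOXO6, FOXN3, FOXP4, FOXO3, FOXP1 and FOXL1. In lists of equal length 13 of 36 were kept (36.1%, beside 32.3% of all), and without siNS 2 the share was 9.55% of 157, beside 9.55% of all.

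Gene ends and other places were then taken apart. Within 1 kb of a gene end 1 of 28 was kept (3.57%, 0.0904 to 18.3, beside 6.28% of all), and elsewhere 13 of 65 were kept (95% interval 11.1 to 31.8%, beside 24.9% of all). The forkhead intervals overlap. Kept regions also ranked higher in the siNS lists. The score is the authors' own and its definition is not stated, so it was used only as a percentile within a list (100 is the strongest peak). Below, the strongest region of a gene is the siNS consensus region with the highest mean percentile over the siNS lists, and for siFOXA1-only regions over the siFOXA1 lists; single lists can place another region higher. The kept forkhead regions had a median siNS percentile of 90.5 and the others 69.3. Of the 12 forkhead regions in the strongest 10% of all siNS consensus regions, 4 were kept (33.3%, 9.92 to 65.1), beside 58.3% of all regions that strong, which lies inside the forkhead interval. Among the weaker regions 10 of 81 were kept (12.3%), beside 12.4%.

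Conversely, 17 of the 22 siFOXA1 consensus regions of forkhead genes (77.3%, 54.6 to 92.2) overlapped a siNS peak and 5 did not. The share was 60.0% over all regions, which include those assigned to no gene. Of the 6272 siFOXA1 consensus regions assigned to any gene, 2181 had no siNS peak. The siNS libraries differed here. Of the 32 forkhead regions with a siFOXA1 1 peak, 14 also held a siNS 1 peak and 21 a siNS 2 peak. Of the 27 with a siFOXA1 2 peak, 14 held a siNS 1 peak and 19 a siNS 2 peak. Over all regions siNS 2 was likewise the library with more shared regions, at 52.3% and 48.2% against 28.6% and 26.6% for siNS 1.

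Regions were spread unevenly over the genes. FOXP4, FOXO6, FOXN3 and FOXO3 held 37 of the 93 siNS consensus regions (39.8%). In all, 5 genes had 5 or more (10.6% of the 47, beside 4.28% of all genes) and 2 had 10 or more (4.26%, beside 0.499%). The genes were split at a length of 20 kb, above which the counts did not rise steadily with length. FOXP1 (629271 bp) had 3 siNS consensus regions and FOXP2 (607439 bp) 2. FOXN3 (462989 bp) had 9, FOXP4 (56004 bp) 12 and FOXO6 (22157 bp) 11. The 14 forkhead genes of at least 20 kb all had a siNS consensus region, beside 76.2% of all protein-coding genes of that length, and held 60 of the 93, with 19 of the 22 siFOXA1 consensus regions. The 33 shorter genes held the other 33, at 17 genes (51.5%, beside 55% of all shorter genes), and 3 siFOXA1 consensus regions. Per megabase of genome assigned, forkhead genes had 14.3 siNS consensus regions, beside 11.4 over all protein-coding genes, and 3.39 siFOXA1 consensus regions, beside 3.00.

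**Figure D3:**
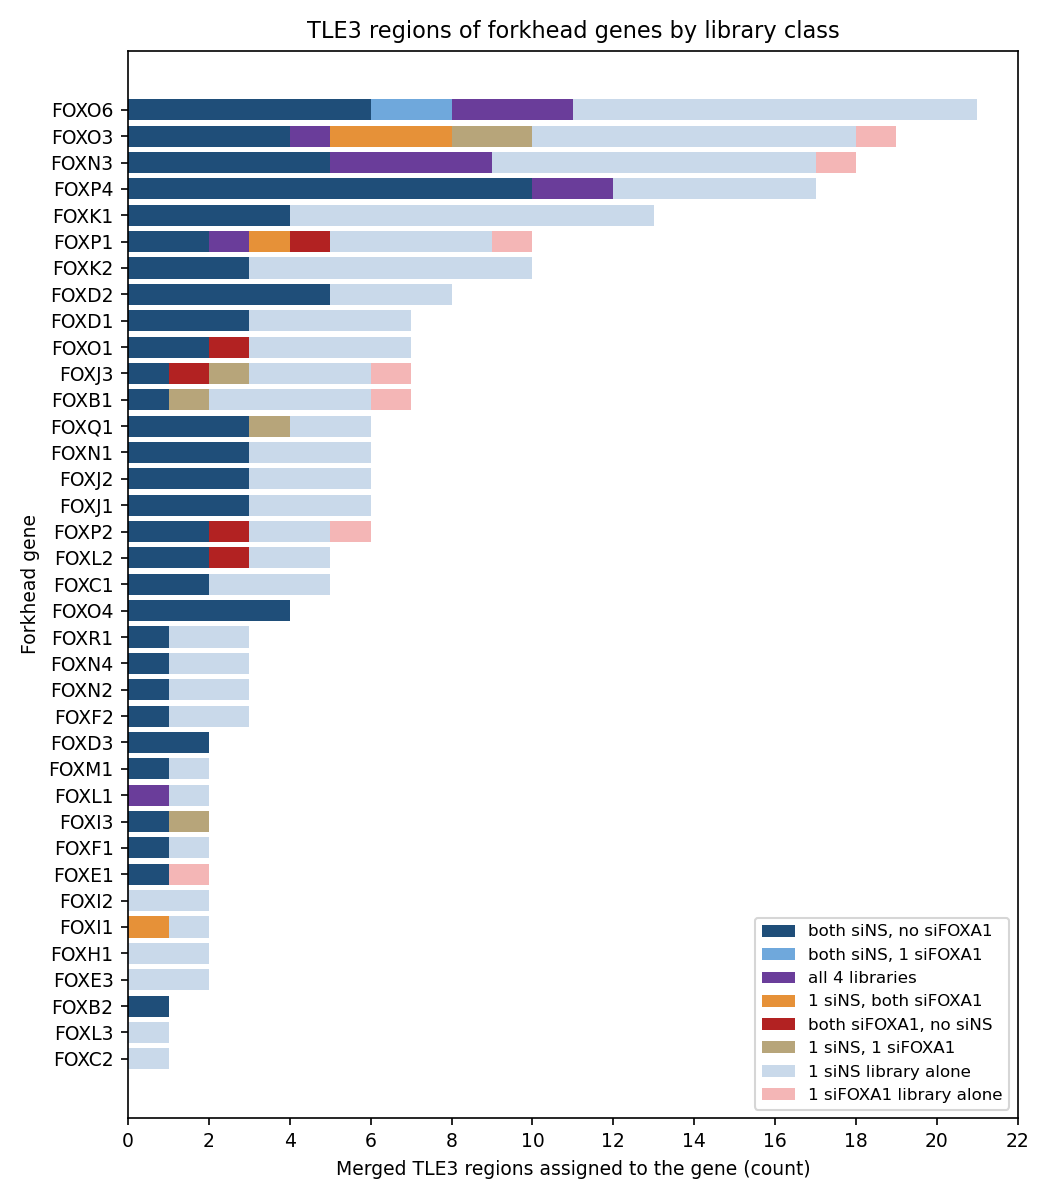
Merged TLE3 regions assigned to each of the 37 forkhead genes with a region (x axis, count), coloured by the libraries that hold a peak. FOXO6, FOXO3, FOXN3 and FOXP4 have the longest bars, with 21, 19, 18 and 17 regions, and regions with siFOXA1 peaks are concentrated in a few genes.

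The FOXO genes encode the factors that insulin and growth factor signalling, through PI3K and AKT, keeps out of the nucleus. Together they had 51 regions, 22 of them siNS consensus regions with 6 kept, and 8 siFOXA1 consensus regions. FOXO6, known mainly from brain, had 17, 16, 4 and 5 peaks in siNS 1, siNS 2, siFOXA1 1 and siFOXA1 2 (the order used for all such counts here) in 21 regions. Of its 11 siNS consensus regions 5 were kept, more than at any other forkhead gene, but 2 of the 5 rest on 1 siFOXA1 library. All 4 libraries shared 3 regions at FOXO6 and 4 at FOXN3. Its strongest lay at chr1:41353560-41354328, 7106 bp before the gene, with peaks in all 4 libraries at percentiles 97.9, 97.0, 92.2 and 90.2. The region over the FOXO6 start, chr1:41360917-41363213, stood at percentiles 86.9 and 69.0 in the siNS lists and in neither siFOXA1 list. Regions on both sides of that start thus held siFOXA1 peaks while the start itself held none.

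FOXO3, a tumour suppressor and stress response factor, had 9, 15, 5 and 6 peaks. Its siNS lists differed by more than those of FOXO6, and its consensus count of 5 rests on peaks that both share. The region over its start, chr6:108559113-108561631, and the one just before, chr6:108556465-108558851, both ranked at 96.1 as a siNS mean percentile and had no siFOXA1 peak. All 4 libraries shared chr6:108739170-108740036, 54396 bp past the gene, at percentiles 77.0, 98.3, 76.4 and 84.9. Another 3 FOXO3 regions had peaks of both siFOXA1 libraries and of 1 siNS library, so the gene had 4 siFOXA1 consensus regions. At chr6:108650049-108650846, inside the gene, the percentiles were 47.2 in siNS 2, 85.9 in siFOXA1 1 and 65.3 in siFOXA1 2. There the ranks in the siFOXA1 lists stood above that in the siNS list, which compares places in lists of unequal length.

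FOXO1, which drives liver glucose output and cell cycle arrest, had 3, 9, 1 and 1 peaks. Its start region, chr13:40664543-40667581, ranked at 87.8 and 79.4 in the siNS lists and had no siFOXA1 peak. Inside the gene, chr13:40647980-40648414 had no siNS peak and ranked at 76.7 and 90.2 in the siFOXA1 lists, the strongest of the 5 siFOXA1-only regions of forkhead genes. FOXO4, a shorter FOXO gene on the X chromosome, had 4 peaks in each siNS library and 0 in each siFOXA1 library. Its 4 siNS consensus regions were spread from the start to the far end, and the strongest, chrX:71103064-71104253, also overlapped CXorf65, so the gene it belongs to cannot be told from position.

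FOXP proteins repress transcription and bind DNA as dimers. The 4 FOXP genes had 33 regions with 17 siNS consensus regions, 3 of them kept, and 6 siFOXA1 consensus regions. FOXP4 had 12 siNS consensus regions, beside 11 at FOXO6, with 17, 15, 2 and 2 peaks. The order of these genes turned with the processing, since lists of equal length gave 3 at FOXP4 and 6 at FOXO6. Its strongest siNS consensus region, chr6:41456352-41457372, lay 89009 bp before the gene in the noncoding gene LOC112267957, at percentiles 99.3 and 99.5, and no siFOXA1 list held it. The 2 kept regions were chr6:41536600-41537606, in FOXP4-AS1, at percentiles 94.2, 87.5, 74.0 and 74.1, and chr6:41469815-41471303, at 92.5, 85.2, 30.9 and 32.8. The FOXP4 start region, chr6:41545362-41547564, was held by the siNS lists only. Restricting the distance to 10 kb left 7 siNS consensus regions and 1 siFOXA1 consensus region at FOXP4.

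FOXP1, a regulator of B cells, heart and hormone-responsive breast tissue, had 5, 8, 4 and 3 peaks. Its siNS and siFOXA1 consensus counts were equal, at 3 each, in a gene of 629271 bp. The start lay under the wide region chr3:71581315-71585080, which merged peaks of all 4 libraries at percentiles 97.3, 94.1, 31.1 and 31.6. The siFOXA1 peaks in it lay wholly outside FOXP1, 820 (siFOXA1 1) and 786 bp (siFOXA1 2) upstream of the end of the gene on its start side, and did not reach the FOXP1 start window. They lay over the start of FOXP1-DT, a noncoding gene read in the opposite direction. The 250 bases before the FOXP1-DT start, chr3:71584693-71584942 on the plus strand, are shown because they hold the forkhead letters, in capitals.
FOXP1-DT: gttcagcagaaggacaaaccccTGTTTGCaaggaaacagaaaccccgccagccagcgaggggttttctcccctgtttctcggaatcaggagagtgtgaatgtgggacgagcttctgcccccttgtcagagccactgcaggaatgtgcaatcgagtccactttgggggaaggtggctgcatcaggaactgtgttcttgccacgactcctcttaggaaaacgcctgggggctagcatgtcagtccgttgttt
This is a single stretch picked for its letters, which 6.11% of the start windows of all protein-coding genes also hold. A peak of each siNS library covered those letters, 364 bp wide in siNS 1 and 3342 bp wide in siNS 2. The siFOXA1 2 peak began 43 bp and the siFOXA1 1 peak 77 bp past them. This stretch held 8 CG pairs, against 31 in that of FOXP1. Farther inside FOXP1, chr3:71195471-71195840 had siFOXA1 peaks only, at percentiles 49.4 and 81.0, and chr3:71423033-71423869 had siNS 2 and both siFOXA1 peaks, at 92.3, 73.1 and 75.0.

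FOXP2, known for its part in speech and language, had 3, 4, 1 and 2 peaks around a gene of 607439 bp. Its strongest siNS consensus region, chr7:114085600-114087157, lay over the end of the gene on its start side, with percentiles 73.1 and 50.6. The start windows at hand for FOXP2 lie inside the gene, the nearest 327658 bp from this region. They count among the windows with no siNS peak, so the start-window counts do not cover the region. The siFOXA1-only region chr7:114021081-114021710 lay 64617 bp outside, at percentiles 66.1 and 72.1, and was not a siFOXA1 consensus region when peaks had to overlap by at least 50% of the shorter. FOXP3, the factor of regulatory T cells, had no region.

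**Figure D4:**
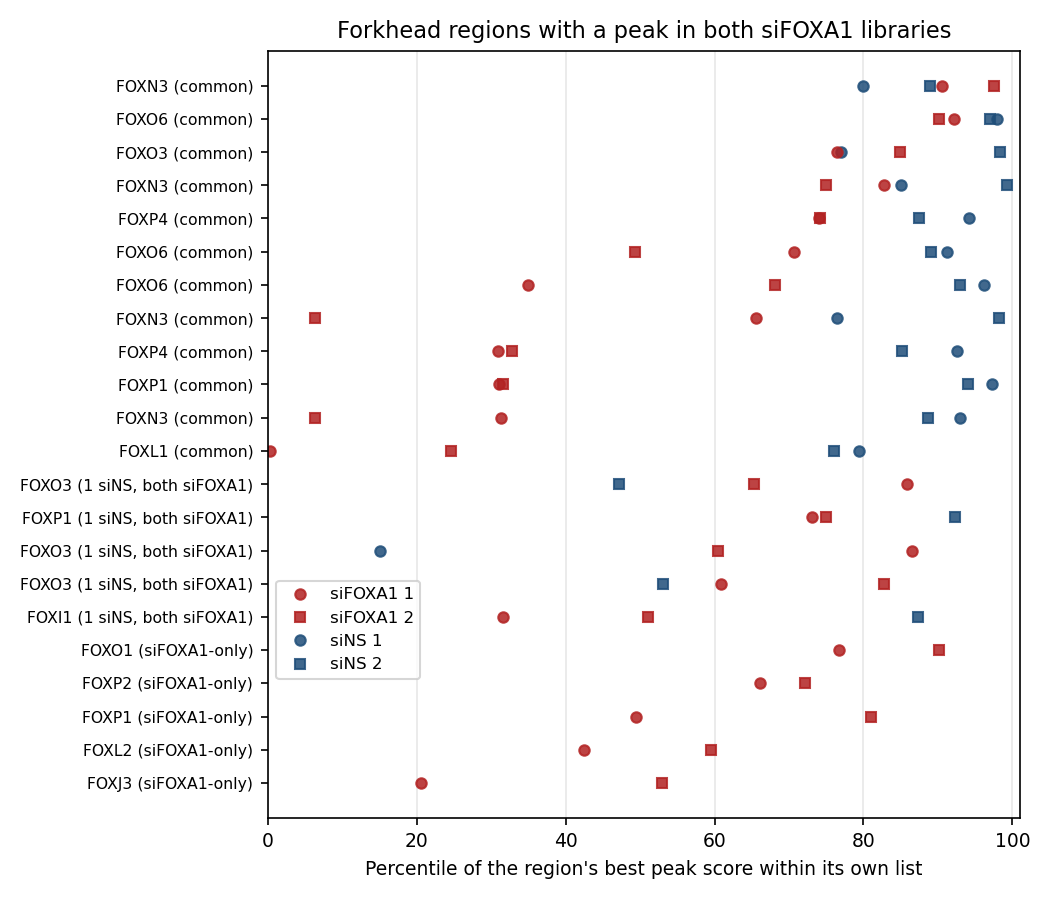
Percentile of the best peak score within its own list (x axis, 100 is strongest) for the 22 forkhead regions with peaks of both siFOXA1 libraries, 1 row per region, siNS in blue and siFOXA1 in red. In 10 of the 12 rows of regions shared by all 4 libraries both blue points lie to the right of both red ones; the top FOXN3 row and the FOXO3 row are the exceptions. The percentiles are places in lists of unequal length and do not compare signal between the groups. The same count was not made over all regions shared by the 4 libraries.

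FOXN proteins include FOXN1, needed for the thymus and hair, and FOXN3, a repressor first found as a checkpoint suppressor. The 4 FOXN genes had 30 regions, with 14 siNS consensus regions and 4 kept, all 4 at FOXN3. FOXN3 had 12, 15, 4 and 6 peaks. Inside the gene, chr14:89572440-89573607 stood at percentiles 80.0, 89.0, 90.6 and 97.5, the strongest forkhead region by its mean over the siFOXA1 lists. The region chr14:89214113-89214850, also inside FOXN3, stood at 85.1, 99.3, 82.7 and 75.0. The strongest siNS consensus region of FOXN3, chr14:89701364-89702123, 82199 bp before the gene, stood at 97.9 and 94.2 and had no siFOXA1 peak. FOXN2 had 2 peaks in each siNS library and 0 in each siFOXA1 library, and its end region chr2:48314095-48315640 ranked at 97.5 and 93.2. FOXN1 had 5, 4, 0 and 0 peaks and 3 siNS consensus regions, all inside the gene, the strongest being chr17:28524970-28525541 at 48.1 and 72.4. FOXN4, a retinal factor, had 1 siNS consensus region.

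The FOXK genes, whose proteins recruit chromatin modifiers and restrain autophagy genes in fed cells, had 23 regions and no siFOXA1 peak. FOXK1 had 11, 6, 0 and 0 peaks with 4 siNS consensus regions, and FOXK2 had 6, 8, 0 and 0 with 3. The FOXK1 start region, chr7:4681701-4683003, was its strongest at percentiles 82.3 and 78.3, with chr7:4641420-4642571 close to it at 82.8 in siNS 1. At FOXK2 the strongest was chr17:82518929-82519710, at 72.7 and 55.2, at the gene's start.

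The 3 FOXJ genes had 19 regions. FOXJ1, the master regulator of motile cilia, had 6, 3, 0 and 0 peaks, its strongest region being chr17:76132204-76133178 at 90.3 and 79.6 in the noncoding gene LOC101928447. FOXJ2 had 5, 4, 0 and 0 peaks and its strongest region was chr12:8038358-8039121, at 85.3 and 88.2. FOXJ3 had 3, 3, 3 and 1 peaks. Its start region, chr1:42334391-42335738, ranked at 79.0 and 63.5 in the siNS lists alone, and chr1:42266259-42266664, inside the gene, ranked at 20.5 and 52.9 in the siFOXA1 lists alone.

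The FOXD genes, most of them factors of embryonic development, divided into 3 with regions and 6 without. Those with regions had 17, of which 10 were siNS consensus regions and none held a siFOXA1 peak. FOXD2 had 7, 7, 0 and 0 peaks. Its region chr1:47477651-47478865, 36960 bp past the gene, was the strongest of all forkhead regions, with the authors' scores of 291 and 325 and percentiles of 99.6 and 99.7, and no siFOXA1 list held it. With the distance limited to 10 kb, FOXD2 had 2 siNS consensus regions in place of 5. FOXD1, a kidney stroma factor, had 4, 6, 0 and 0 peaks, the strongest region being chr5:73436944-73437875 at 89.1 and 79.0. FOXD3, a factor of the neural crest and of pluripotent cells, had 2, 2, 0 and 0 peaks, 1 of them over its start.

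FOXD4, FOXD4L1, FOXD4L3, FOXD4L4, FOXD4L5 and FOXD4L6 had no region. They are closely related copies. Of the 25-letter words in the FOXD4L3 start window, 92.0% also stood in the window of another gene of the group. The shares were 69.2% for FOXD4L4, 59.8% for FOXD4L6, 50.7% for FOXD4, and 12.3% each for FOXD4L1 and FOXD4L5. Reads from such copies can fail to be placed uniquely. Whether that happened here was not tested, and their lack of regions is uncertain for that reason. FOXP3, FOXR2 and FOXS1 had no region either.

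FOXQ1, FOXF2 and FOXC1 lie together on chromosome 6. FOXQ1, linked to epithelial plasticity, had 4, 5, 1 and 0 peaks and 3 siNS consensus regions, the strongest being chr6:1290478-1291168 at percentiles 65.9 and 88.1. FOXC1, a marker of basal-like breast cancer, had 2 siNS consensus regions, and FOXF2, a factor of mesenchyme, had 1. None of these 6 regions held a siFOXA1 peak.

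The remaining siFOXA1 consensus regions lay at FOXL1, FOXL2 and FOXI1. FOXL1, a factor of the gut mesenchyme, had 1, 2, 1 and 1 peaks, and its region chr16:86624921-86625479, 41443 bp away, was shared by all 4 libraries at percentiles 79.4, 76.1, 0.261 and 24.6. In siFOXA1 1 that peak was thus among the weakest of the list. FOXL2, which specifies ovarian granulosa cells, had 3, 3, 1 and 1 peaks. Its strongest siNS consensus region was chr3:138915000-138916369 at 83.3 and 88.2, and chr3:138921706-138922158 was siFOXA1-only at 42.5 and 59.5. FOXI1, a factor of ionocytes, had 0, 2, 1 and 1 peaks, and chr5:170135946-170136827 held siNS 2 and both siFOXA1 peaks at 87.3, 31.6 and 51.1. When only the stronger 50% of each list was used, FOXI1, FOXJ3, FOXL1 and FOXL2 had no siFOXA1 consensus region, and the number of genes with such a region was 7 in place of 11 (14.9% of the 47, beside 12.6% of all genes). With regions within 10 kb only it was also 7, beside 14.9% of all genes.

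Among the other genes, FOXM1, the driver of mitotic genes, had 1 siNS consensus region, which also overlapped RHNO1. FOXB1, FOXB2, FOXE1, FOXF1, FOXI3 and FOXR1 also had 1 each, with no region kept. FOXC2, FOXE3, FOXH1, FOXI2 and FOXL3 had regions of single libraries only. In all, 22 genes (46.8% of the 47) had regions from the siNS lists only, beside 51.8% of all genes.

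**Figure D5:**
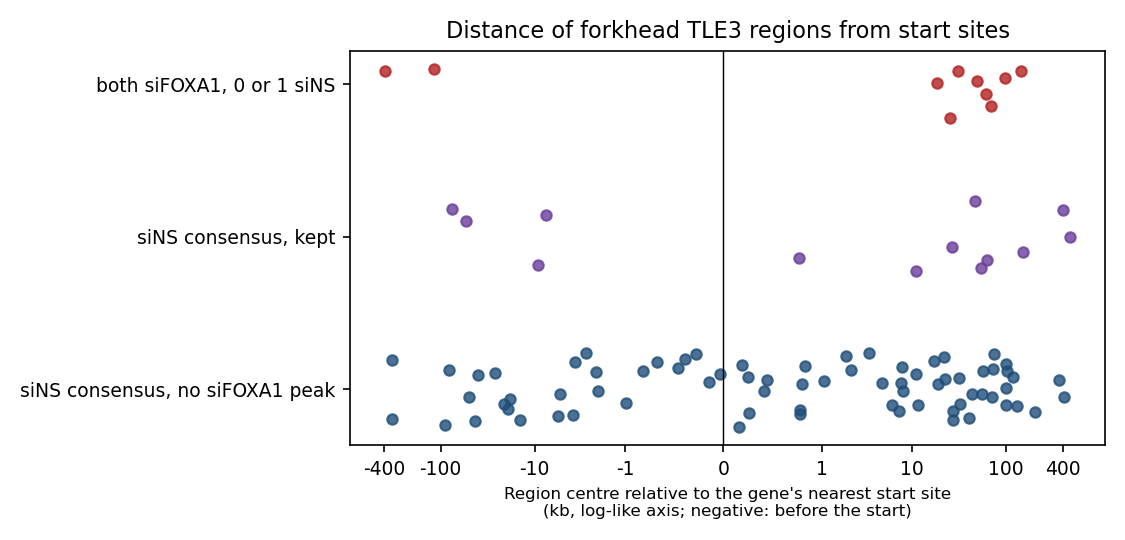
Distance of forkhead regions from the nearest start site in the RefSeq start table (x axis, kb, on a log-like scale, negative before the start), in 3 classes, for genes with a start site in the table. Regions with both siNS peaks and no siFOXA1 peak (bottom) lie close to and far from starts. Of the kept regions and those with both siFOXA1 peaks, 1 has its centre within 1 kb, that of FOXP1. This is the centre of a merged region of 3766 bp, whose siFOXA1 peaks do not reach the FOXP1 start window. Regions with a peak of 1 siFOXA1 library and of fewer than 2 siNS libraries are not plotted.

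Noncoding genes lay under some of the regions. Of the 223 regions 46 (20.6%) overlapped a RefSeq long noncoding RNA gene, beside 15.3% of the regions assigned to any gene. Of the 93 siNS consensus regions 26 (28.0%) did, beside 19% of all assigned siNS consensus regions. FOXP4-AS1 and LOC112267957 at FOXP4, LOC101928447 at FOXJ1, and LINC01389 and FOXD2-AS1 at FOXD2 were such genes. The gene table gives spans without exons, so regions inside a gene were not placed in exons, introns or UTRs. Position alone does not tell whether a region belongs to the forkhead gene or to the noncoding gene.

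Genes that act with the forkhead factors were described by the same counts, next to 66.6% of all genes with a siNS consensus region, 19.7% with a siFOXA1 consensus region and a median of 1 siNS consensus region per gene. INSR and IRS2 stand in both FOXO lists and SKP2 in 2 lists. The median per gene was 2 in the upstream list, 1.5 among FOXO targets, 1 among FOXM1 targets and 3 among TLE genes. Kept siNS consensus regions were 9 of 63 in the upstream list and 12 of 55 among FOXO targets. They were 5 of 30 among FOXM1 targets and 3 of 18 among TLE genes, beside 4003 of 25817 over all protein-coding genes. AKT2, BCL6 and CDC25B, named below, had the most kept regions of their lists and do not stand for the other members. Of 25 upstream kinases, phosphatases and modifiers of the FOXO factors, 25 had a siNS consensus region and 6 a siFOXA1 consensus region. AKT2, a kinase that inactivates FOXO factors, had 5 siNS consensus regions with 4 kept, and IGF1R, the growth factor receptor, had 6 with 0 kept. Of 28 FOXO target genes, 25 had a siNS and 10 a siFOXA1 consensus region, and BCL6, a transcriptional repressor, had 6 siNS consensus regions with 2 kept. Of 25 FOXM1 target genes, 18 had a siNS and 2 a siFOXA1 consensus region. CDC25B, a phosphatase that starts mitosis, had 4 siNS consensus regions with 3 kept. It had 0 siFOXA1 consensus regions, so each kept region there rests on a single siFOXA1 library. All 6 TLE genes had a siNS consensus region and 4 a siFOXA1 consensus region, with 5 siNS consensus regions and 0 kept at TLE3 itself. Of the 3 FOXA genes, 2 had a siNS consensus region, and FOXA1, the silenced gene, had 4 with 1 kept.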

How the data were processed

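TLE3 ChIP-seq was read from 4 peak lists, 1 per ChIP library, deposited as position, peak name and score, without a header. The submitters' processing notes name Trim Galore, BWA 0.7.5a, SAMtools, MACS2 and build hg38. The sources used here give no thresholds, no use of inputs and no definition of the score. The score is the authors' deposited value and served only for ranks within a list. The list deposited for siFOXA1 2 has a 3 in its name where the sample's title has 2, and the title was followed. No list holds reads, so depth is unknown and no count model was run.

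Python 3.11.15 with numpy 2.4.6 and scipy 1.17.1 merged peaks that overlapped by at least 1 bp, and assigned regions with the RefSeq gene table (GRCh38.p14). Merging was checked against bedtools 2.31.1 (72272 of 72272 regions equal) and classing on 6200 simulated regions, all recovered. Peaks outside chromosomes 1 to 22, X and Y (3 to 9 per list) were left out. Library values were compared by two-sided exact permutation tests; binomial intervals are Clopper-Pearson. Members and gene lists were chosen with earlier results of these data known. Every member is counted, and 1 is not reported here by name; values per library are given for the 10 with the most siNS consensus regions (ties included), those with a siFOXA1 consensus region and those with a region in the strongest 10%, 21 genes in all. Start windows are RefSeq sequences. Alternatives were score thresholds, overlap rules, widened peaks, equal list lengths, distances of 10 and 50 kb, 1 gene per region, a replicate block and leaving out each library. A search for EH1 peptides was not run, as no protein table was used here.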

Additional observations from a re-analysis of the deposited data

How the results depend on the processing

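The 4 values compared between libraries kept their direction under all 11 alternatives and with the replicate block, whose exact permutation p was 0.5 for each (smallest possible with 4 relabelings). The deviations of same-numbered libraries were close to uncorrelated (r = 0.0116 over 72272 regions). Most of these regions hold no siFOXA1 peak, so this value cannot show whether same-numbered libraries were prepared together. The labels give only a replicate number. Leaving out a library gave differences of 126.5 to 134.5 forkhead peaks, 20 to 24 genes with a peak, 0.0910 to 0.141 percentage points of peaks and 17.1 to 18.3 percentage points of peaks at gene ends. It gave 9.55% to 14.5% of siNS consensus regions kept, 31 to 36 genes with a siNS consensus region and 11 to 15 with a siFOXA1 consensus region, and start windows of 15 to 16 genes (siNS) and of 0 (siFOXA1). Lists of equal length gave 36.1% kept, 16 genes with a siNS consensus region (34.0%, beside 28.3% of all genes) and siNS peaks on the start windows of 4 genes (10.8%, beside 18.4%). Genes with a siFOXA1 consensus region numbered 7 when only the stronger 50% of each list was used and 7 within 10 kb. The start-window alternatives were chosen after seeing the data. Of 462 counts at the 21 named genes under the 11 alternatives, 388 stayed within 1.5 times and 74 moved, 49 lower and 25 higher. Leaving out a siNS library makes a single list the consensus. This raised the siNS count by over 1.5 times at 12 genes without siNS 1 (FOXO1 from 2 to 9 and FOXO3 from 5 to 15 among them). It did so at 10 genes without siNS 2 (FOXK1 from 4 to 11 among them). Part of the FOXO1 rise is not new places, since its start region merged 5 siNS 2 peaks that are counted apart without siNS 1. Without siFOXA1 2 the siFOXA1 count rose at FOXJ3 and FOXQ1, and without siFOXA1 1 at FOXP2. The lists hold only called peaks and no depth, so a region missing from a list was not called there, and weak binding below the threshold was not detectable.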
